A study of Mus musculus with 4 samples.

Results

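Ccnd1, Ccnb2 and Rbl1 are the mouse genes for cyclin D1, cyclin B2 and the pocket protein p107. They are 3 of the 4878 genes in a table of ribosome footprints from mouse embryonic fibroblasts, connective tissue cells grown from embryos and used here at passages 5 to 8. The cells were transfected with a negative control siRNA (2 libraries) or with an siRNA against eIF1A, which the labels write as Si-eIF1A (X+18) (2 libraries). All 4 libraries came from cells that had been transfected with the same lipid reagent, and no further genotype or treatment is given in the labels. eIF1A works on the small ribosomal subunit while it scans an mRNA for the start codon. Ribosome profiling sequences the mRNA pieces that a ribosome shields from RNase, so each read, or footprint, marks the place of a ribosome. The 3 genes were taken by name, and the names were chosen by their log2 difference in coding footprints between the same 4 libraries. Their differences between the siRNAs are therefore given as a description, with no test.

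Cyclin D1 is the regulatory partner of the kinases Cdk4 and Cdk6. Mitogens raise it in the G1 phase, and the active kinase phosphorylates the pocket proteins Rb1, p107 (Rbl1) and p130 (Rbl2). Pocket proteins hold back E2F transcription factors, and p107 and p130 also belong to the DREAM complex, which represses genes of the cell cycle in resting and early G1 cells. Cyclin B2 appears later, in the G2 phase, where it activates the kinase Cdk1 for entry into mitosis, and it is then destroyed through the APC/C, the ubiquitin ligase of mitosis. In fibroblasts, cyclin D1 is known as the cyclin that answers serum and growth factors.

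The promoter sequences of Ccnb2 and Rbl1 are shown as background, since each carries elements known from cell cycle genes, though not the same ones. Any link between these elements and the footprints was not tested. The sequences are from RefSeq (build GRCm38.p6) and cover 250 bases before to 50 bases after the annotated start, and 2 of the 3 genes had an entry. Ccnb2 (chromosome 9, 70407689 to 70421554, minus strand) held 3 CCAAT boxes, the site of the factor NF-Y, with first bases at -87, -54 and -21 from the start and therefore 33 bases apart. It also held the letters TTTGAA, the cell cycle homology region (CHR) through which DREAM binds, at -167 and at 5 bases into the transcript. Rbl1 (chromosome 2, 157145893 to 157204534, minus strand) held 1 E2F site, at -18. Capitals mark the motif in each 30-base window, written 5′ to 3′ on the strand of the gene.
Ccnb2 CCAAT box, chr9:70421625-70421654: aaatacaagccagCCAATcaacgtgcagaa
Ccnb2 CCAAT box, chr9:70421592-70421621: ccttccagtctagCCAATgggttgcgcgcg
Ccnb2 CCAAT box, chr9:70421559-70421588: tgcgtgcgtctacCCAATagtgcgtcagcg
Ccnb2 CHR, chr9:70421533-70421562: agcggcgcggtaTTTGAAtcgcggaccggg
Rbl1 E2F site, chr2:157204534-157204563: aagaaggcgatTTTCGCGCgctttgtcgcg
Both strands were searched. Of 32851 promoter sequences of the same length, 37.4% held CCAAT, 3.37% held it at least 3 times and 17.9% held TTTGAA. The E2F site was searched as TTTCCCGC, TTTCGCGC, TTTGCCGC or TTTGGCGC, and 2.26% of the sequences held 1 of these. None of the matches shown overlapped another motif, and a match is a description of letters, not of binding.

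Each value below is a normalized read number, which is the read count of a gene divided by a factor for its library. The listed genes held 547916 to 617663 reads in the controls and 280649 to 458191 in the knockdown libraries, so depth moved with the siRNA, and its part in the results was not tested. The lowest value in every library was 1 read, worth 0.717 to 1.60 normalized reads, and it may stand for 0 or 1. RNA-seq was not used here, so more mRNA and more translation of it cannot be told apart, nor can fewer cells in a phase and fewer footprints per cell. The siRNA's own target was not analysed here, so the knockdown was not checked. Of 14 fibroblast markers 5 were listed (Vim, S100a4, Fn1, Fbln1 and Fbln2). Their summed coding level was 4373 to 6182 normalized reads in the controls and 3082 to 3676 in the knockdown libraries. Of the 5, Vim was higher in the knockdown by 0.38 ± 0.39 (SE) on the scale of log2(value + 1), and the others were lower. The collagen markers Col1a1, Col1a2 and Col3a1 were not among the listed genes. Endothelial and leukocyte markers had 0 listed genes of 8 each, and 1 of 10 epithelial, 2 of 8 neural and 2 of 8 muscle and pericyte markers were listed. Their summed levels were lower in the knockdown libraries too, at 82.4 and 71.8 after 109 and 146 for the epithelial marker, 92.6 and 68.6 after 160 and 207 for the neural ones, and 106 and 123 after 337 and 548 for those of muscle and pericytes.

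Ccnd1 had almost no coding footprints in the controls and many in the knockdown libraries. Its coding level was 4.30 and 2.59 normalized reads in control replicates 1 and 2, from 6 and 3 reads. It was 79.3 and 36.7 in knockdown replicates 1 and 2, from 78 and 23 reads. Both knockdown libraries lay far above both controls, as they did, by any margin, in 26% of the 4619 genes tested. The means were 3.45 ± 1.21 and 58.0 ± 30.1 (SD, n = 2), a difference of 3.66 ± 0.51 (SE) on the scale of log2(value + 1). Of the 4619 genes, 1 had a higher difference. The 3 genes were chosen by this difference, so their ranks in it only describe the choice. Genes were tested where their mean reached 10 normalized reads, which Ccnd1 did only through its knockdown libraries. Pooled over the libraries of a group, the reads gave 17.8 times more in the knockdown (95% counting interval 9.01 to 40.0). Taking 1 read off every value gave 22.4 times (10.5 to 57.2). These intervals are exact binomial ones and cover counting error only.

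The knockdown libraries themselves differed in Ccnd1. Replicate 1 held 2.16 times the coding level of replicate 2, with a counting interval of 1.34 to 3.61, where the median ratio of all genes tested was 1.23. In the controls the same ratio was 1.66, and its interval of 0.354 to 10.3 shows how little 9 reads can say. In the order of its genes by coding level, Ccnd1 stood above 1.42% and 0.800% of the listed genes in the controls and above 75.5% and 56.6% in the knockdown libraries. This place in the order does not depend on the scaling of the libraries.

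Ccnb2 went the other way. Its coding level was 173 and 170.3 normalized reads in the controls, from 242 and 197 reads. It was 41.7 and 30.3 in the knockdown libraries, from 41 and 19 reads. The groups did not overlap, and both knockdown libraries lay below both controls in 40.1% of the genes tested. The control replicates were nearly equal, with a ratio of 1.02 (counting interval 0.840 to 1.24). The means were 172 ± 2.21 and 36.0 ± 8.04 (SD, n = 2), a difference of -2.24 ± 0.31 (SE, log2), and 116 genes had a lower one. The pooled reads were 4.61 times more frequent in the controls (3.52 to 6.15). RefSeq lists a pseudogene, Ccnb2-ps, on chromosome 8, and the counting of reads shared with it is not given in the sources.

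Rbl1 was also lower, by less. Its coding level was 147 and 188 normalized reads in the controls, from 205 and 218 reads, and 53.9 and 59.1 in the knockdown libraries, from 53 and 37 reads. The groups did not overlap, as for the 40.1% of the 4619 genes tested with both knockdown libraries below both controls. The gap between the groups was wider than the gap between replicates in either. The means were 168 ± 29.4 and 56.5 ± 3.65 (SD, n = 2), a difference of -1.54 ± 0.30 (SE, log2), with 377 genes lower. The pooled reads were 2.96 times more frequent in the controls (2.36 to 3.76). In both groups replicate 2 had the higher Rbl1 level, with a ratio of replicate 1 to replicate 2 of 0.780 (0.641 to 0.948) in the controls and 0.913 (0.589 to 1.43) in the knockdown libraries.

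**Figure D1:**
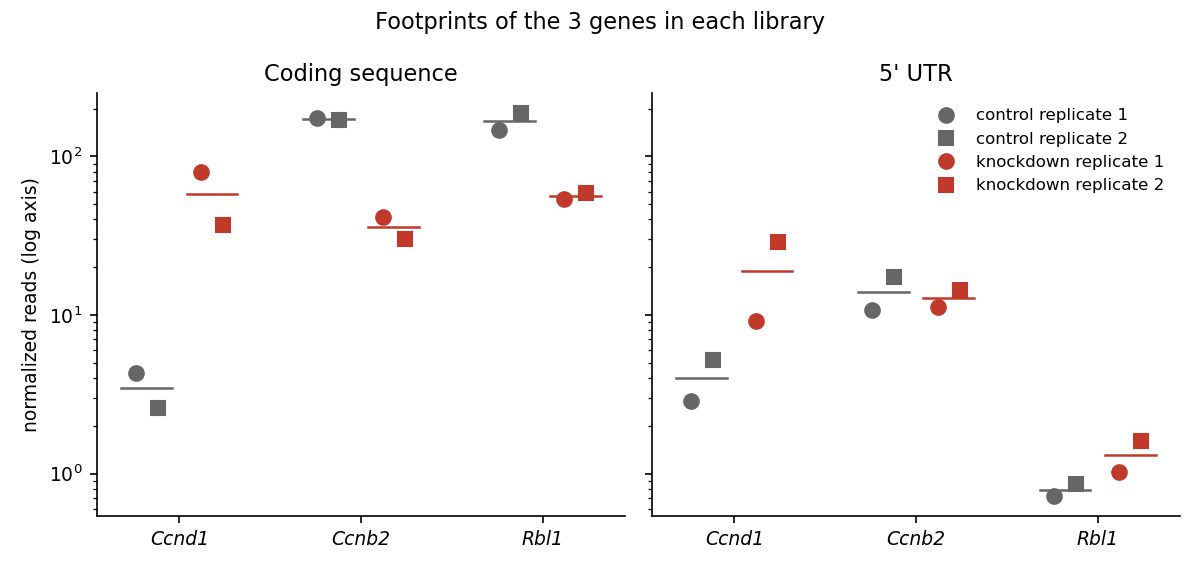
Normalized reads in the coding sequence (left) and in the 5' UTR (right) of Ccnd1, Ccnb2 and Rbl1 on a log axis, with a symbol for each library and a line for the mean of 2 libraries (grey, control siRNA; red, eIF1A siRNA). Control levels of Ccnd1 in the coding sequence lie at 2.59 and 4.30 and knockdown levels at 36.7 and 79.3, while those of Ccnb2 and Rbl1 are lower in the knockdown libraries.

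The reads of these genes can also be set against each other inside a library, which does not depend on the scaling. For every 100 coding reads of Ccnb2 there were 2.48 and 1.52 of Ccnd1 in the controls. In knockdown replicates 1 and 2 there were 190.2 and 121. For every 100 reads of Rbl1 there were 2.93 and 1.38 of Ccnd1 in the controls and 147 and 62.2 in the knockdown libraries, so Ccnd1 stayed below Rbl1 in knockdown replicate 2. Rbl1 and Ccnb2, which were both lower, kept closer to each other, with 84.7 and 111 Rbl1 reads per 100 of Ccnb2 in the controls and 129 and 195 in the knockdown libraries. Gene length enters each of these ratios but is the same in every library.

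The second measure was the 5' UTR, the stretch upstream of the main start codon that ribosomes scan. Ccnd1 had 2.87 and 5.19 normalized 5' UTR reads in the controls (4 and 6 reads) and 9.15 and 28.7 in the knockdown libraries (9 and 18 reads). Both knockdown libraries were above both controls, as in 67.4% of the 2101 genes tested in the 5' UTR. The difference was 1.83 ± 0.68 (SE, log2), where the median over all genes was 1.09, and 501 genes had a larger one. Here too Ccnd1 reached the mean of 10 normalized reads only through its knockdown libraries. With TMM factors, which centre the genes of each region near 0, the difference of Ccnd1 was 0.85 and the median 0.03.

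In the deposited scaling, the 5' UTR level of Ccnb2 differed less between the groups than its coding level did. It was 10.7 and 17.3 normalized reads in the controls (15 and 20 reads) and 11.2 and 14.4 in the knockdown libraries (11 and 9 reads). The groups overlapped, with both knockdown values inside the range of the controls. The difference was -0.10 ± 0.58 (SE, log2), where the median over all genes was 1.09, and 287 of 2101 genes had a lower one. Its direction depended on the libraries, since it was 0.22 without control replicate 2 and 0.07 without knockdown replicate 1. With TMM factors the difference was -1.14, with quantile normalization -1.06, with edgeR -1.21 and with DESeq2 -1.26, which is lower, as in the coding sequence. Whether the 5' UTR level of Ccnb2 fell therefore depended on the scaling.

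Rbl1 was listed at the lowest value, 1 read, in the 5' UTR of every library. Between 25.5% and 31.2% of the listed genes had 1 read there in each library, so no change in the 5' UTR of Rbl1 was detectable at this depth. It was not among the 2101 genes tested, where the mean had to reach 10 normalized reads, and neither was its ratio.

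As a share of the reads in both regions together, the 5' UTR took 40.0% of the Ccnd1 reads in control replicate 1 (95% Clopper-Pearson interval 12.2 to 73.8%, 10 reads) and 66.7% in control replicate 2 (29.9 to 92.5%, 9 reads). In the knockdown libraries it took 10.3% (4.84 to 18.7%, 87 reads) and 43.9% (28.5 to 60.3%, 41 reads). The 2 knockdown intervals did not overlap, and the library with the lower share was the one with more coding reads. Over all listed genes the share was 11.6% and 13.7% in the controls and 20.0% and 32.4% in the knockdown libraries, so the share of Ccnd1 lay above that of its library in 3 libraries and below it in knockdown replicate 1. In knockdown replicate 2 the share over all genes lay inside the interval of Ccnd1.

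For Ccnb2 the share was 5.84% (3.30 to 9.44%) and 9.22% (5.72 to 13.9%) in the controls. It was 21.2% (11.1 to 34.7%) and 32.1% (15.9 to 52.4%) in the knockdown libraries, close to the share over all genes there. For Rbl1 the share was at most 2.63%, the value of 1 read among 38 in knockdown replicate 2 (0.0666 to 13.8%), and the upper limit of its interval lay below the share over all genes in every library.

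**Figure D2:**
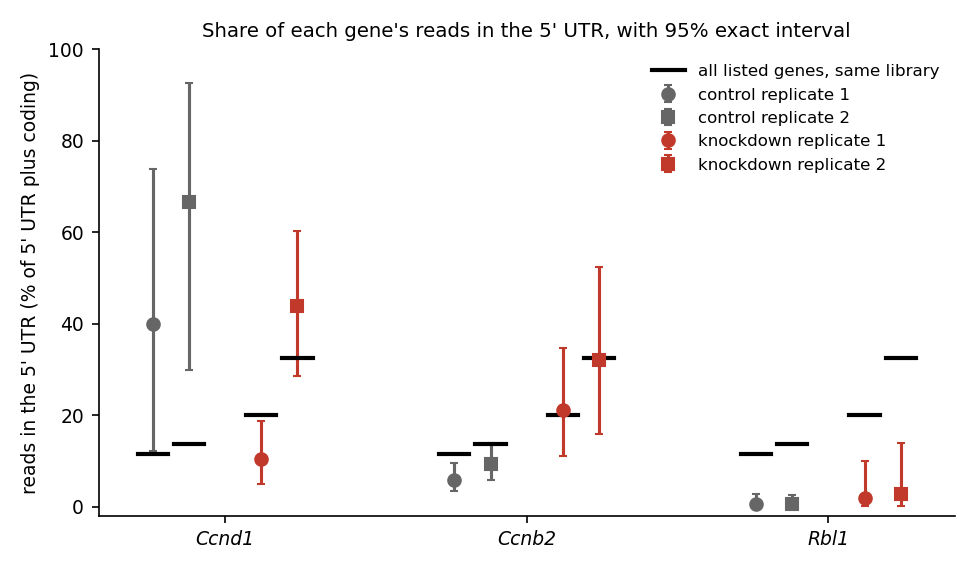
Share of the reads of each gene that lay in the 5' UTR, in percent of 5' UTR plus coding reads, for each library (grey, control siRNA; red, eIF1A siRNA), with 95% exact binomial intervals and a black bar for all listed genes of the same library. The share of Ccnb2 goes from 5.84 and 9.22% to 21.2 and 32.1%, that of Ccnd1 is 10.3% in knockdown replicate 1 and 43.9% in replicate 2, and that of Rbl1 stays at or below 2.63%.

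The ratio of 5' UTR to coding footprints was therefore lower for Ccnd1 and higher for Ccnb2. Its denominator is the coding level, and the genes were chosen by their difference in that level. The choice itself thus favoured a lower ratio for Ccnd1 and a higher ratio for Ccnb2, and the ratios and ranks are a description. For Ccnd1 it was 0.667 and 2.00 5' UTR reads per coding read in the controls and 0.115 and 0.783 in the knockdown libraries, so the groups overlapped. On the log2 scale the difference was -1.83 ± 0.80 (SE), and 2 of the 1907 genes tested had a lower one. Control values of Ccnd1 lay below the filter of 10 normalized reads in both regions, so it was among these genes only through its knockdown libraries. The median over all genes was 1.23, and both knockdown values exceeded both controls for 63.9% of the genes and fell short of both for 1.52%. The size rested on knockdown replicate 1: the difference was -0.51 without that library and -3.15 without knockdown replicate 2. For Ccnb2 the ratio was 0.0620 and 0.102 in the controls and 0.268 and 0.474 in the knockdown libraries, without overlap. Its difference was 2.14 ± 0.77 (SE, log2), with 297 of 1907 genes higher.

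**Figure D3:**
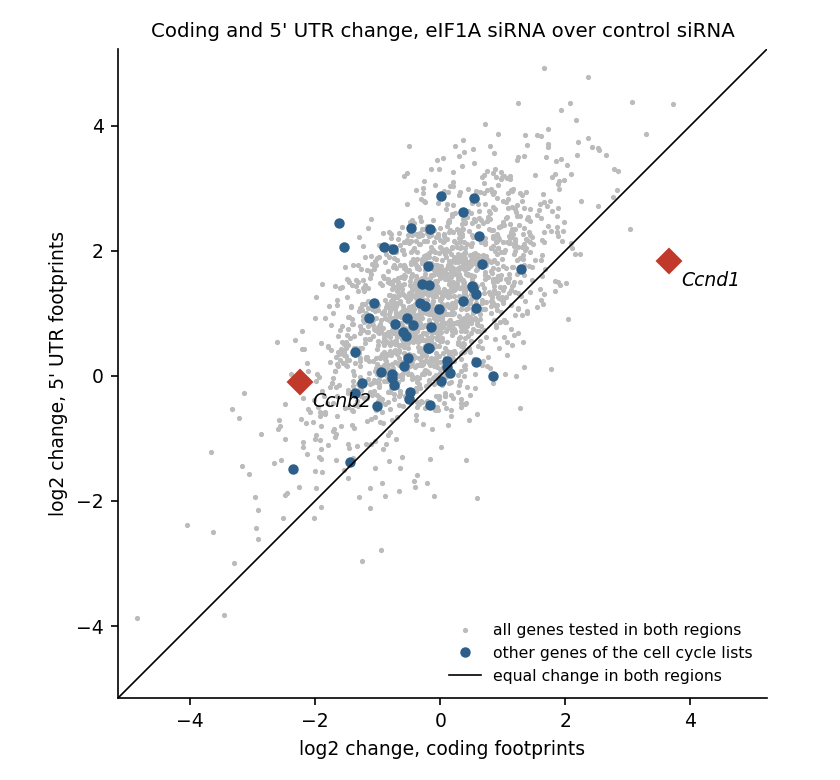
Log2 change in coding footprints (x axis) against log2 change in 5' UTR footprints (y axis), eIF1A siRNA over control siRNA, for the genes tested in both regions (grey), other genes of the cell cycle lists (blue) and Ccnd1 and Ccnb2 (red diamonds), with a line of equal change. Ccnd1 lies at 3.66 and 1.83, below the line, and Ccnb2 at -2.24 and -0.10, above it; Rbl1 had too few 5' UTR reads to be drawn.

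The genes that act with these 3 were taken as 8 lists and tested in one fit across all genes (limma, Benjamini-Hochberg adjusted p under 0.05). With the 3 genes themselves left out, 98 of the 170 genes on the lists were tested in coding footprints, and 3 rose, 22 fell and 73 did not pass. That is 25.5% called, against 29.3% of all 4619 genes tested, with 3.06% higher against 10.6% and 22.4% lower against 18.7%. The median log2 change was -0.29 on the lists and -0.16 over all genes. The calls over all genes, 488 higher and 864 lower, became 786 and 780 with TMM factors, and those on the lists became 4 and 20. Without control replicate 2 limma called 0 of the 98 (24 at an unadjusted p under 0.05) and without control replicate 1 it called 7. The labels do not name separate cultures, so the p-values rest on a spread between libraries that may be technical.

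Of 9 other G1 cyclins, kinases and inhibitors tested, limma called 0, against 29.3% of all 4619 genes tested. At an unadjusted p under 0.05 limma had 1, while edgeR called 2 and DESeq2 0. The median log2 change was 0.16, against -0.16 over all genes. Whether so short a list differed from all genes was not tested. Ccnd3, cyclin D3, had 25.1 and 24.2 normalized coding reads in the controls and 42.7 and 23.9 in the knockdown libraries (log2 0.37 ± 0.38 (SE), limma adjusted p = 0.499), so its groups overlapped. Without knockdown replicate 1 its value was -0.040. Cdk4 had 135 and 126 in the controls and 111 and 71.8 in the knockdown libraries (log2 -0.55 ± 0.31 (SE), limma adjusted p = 0.191). There were 3.17 and 2.05 coding reads of Ccnd1 per 100 of Cdk4 in the controls and 71.6 and 51.1 in the knockdown libraries. Cdkn2b, the inhibitor p15 of Cdk4 and Cdk6, had a log2 value of 1.30 (limma adjusted p = 0.0538), which passed the threshold in 6 of 13 alternatives. Ccnd2, Cdk6, Rb1 and Rbl2 were not analysed here.

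Of the proteins that turn over cyclin D1, 3 of 10 tested passed by limma, 1 higher and 2 lower. That is 30% called, near the 29.3% of all genes tested. Rbx1, the RING subunit of cullin ligases, rose from 39.1 ± 7.58 normalized coding reads in the controls to 115 ± 22.8 (SD, n = 2, log2 1.53, limma adjusted p = 0.00248). Cul4b, a cullin of the ligase that destroys D cyclins, fell by 1.07 on the log2 scale. Fbxo31, an F-box protein that binds cyclin D1 after DNA damage, fell by 1.23, a call lost in 6 of 13 alternatives. Ddb1, the adaptor of Cul4 ligases, had -0.76 (limma adjusted p = 0.067) and Gsk3a, a kinase, -0.61 (limma adjusted p = 0.168).

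Among mitotic cyclins and the control of Cdk1, 1 of 11 tested genes rose and 1 fell, 9.09% each, against 10.6% higher and 18.7% lower over all genes. The median was -0.49, against -0.16 over all genes. Ccna2, cyclin A2 of S and G2 phase, fell from 251 ± 0.0972 normalized coding reads in the controls to 124 ± 12.9 (SD, n = 2, log2 -1.01 ± 0.28 (SE), limma adjusted p = 0.0139). That call was lost with quantile normalization and without either control. Ccnb1, cyclin B1 and the closest relative of Ccnb2, had 216 and 185 normalized coding reads in the controls and 191 and 101 in the knockdown libraries, which overlapped (log2 -0.52 ± 0.33 (SE), limma adjusted p = 0.238). There were 80.4 and 92.1 coding reads of Ccnb2 per 100 of Ccnb1 in the controls and 21.8 and 30.2 in the knockdown libraries. Whether the change of Ccnb2 differed from that of Ccnb1 was not tested, since Ccnb2 was chosen for it. Arpp19, which inhibits the phosphatase opposed to Cdk1, rose by 1.65 (limma adjusted p = 0.00286). Plk1, a mitotic kinase, had -0.56 (limma adjusted p = 0.203) and Pkmyt1, a kinase that restrains Cdk1, had 0.51 (limma adjusted p = 0.219). Cdk1 was not analysed here.

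Many genes of G2 and mitosis that DREAM binds fell. Of 23 tested genes other than Ccnb2, 13 fell and 10 did not pass, which is 56.5% lower against 18.7% of all genes, with a median of -0.95 against -0.16. This list was chosen with earlier results of these data known. Beside it, limma called 3 of 5 fibroblast markers, 1 of 2 neural markers and 2 of 2 muscle and pericyte markers lower, with medians of -1.41, -1.63 and -2.06. The fibroblast marker Vim went the other way, at 0.38 (limma adjusted p = 0.481). The part of cell type in the result was not tested. The 4 G2/M genes with the smallest adjusted p included Gas2l3, a cytoskeleton linker of dividing cells, at -2.35 on the log2 scale (limma adjusted p = 0.00211) and Tacc3, a spindle protein, at -1.55 (limma adjusted p = 0.00121). The others were Ncapd2, a condensin subunit, at -1.39 (limma adjusted p = 0.00267) and Bub1b, a checkpoint kinase, at -1.36 (limma adjusted p = 0.00335). Of these 4 genes, Gas2l3 alone had a lower value than Ccnb2. Mki67 and Ckap2 did not pass, at -0.77 and -0.71 (limma adjusted p = 0.0676 and 0.0752). DESeq2 called 10 genes of the list, against 988 of all 4619 genes, and edgeR 13, against 1712. Most or all of the limma calls on the list were lost with either control left out, as were most of those over all genes. The excess of this list therefore rests on having both controls.

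On the list of the APC/C, the ligase that destroys cyclin B2, 1 of 10 tested genes fell, which is 10% against 18.7% of all genes. Anapc2, its cullin subunit, fell by 0.95 (limma adjusted p = 0.0213), a call lost in 5 of 14 alternatives, DESeq2 among them. The activators Fzr1 and Cdc20 had -0.75 and -0.72 (limma adjusted p = 0.0798 and 0.0858).

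Of 9 pocket proteins, E2F factors and DREAM subunits tested beside Rbl1, 1 rose and 8 did not pass. The share that rose, 11.1%, was near the 10.6% of all genes. The one that rose was E2f4, the E2F factor that p107 binds in DREAM, from 15.8 and 13.8 normalized coding reads in the controls to 43.7 and 52.7 in the knockdown libraries (log2 1.64 ± 0.37 (SE), limma adjusted p = 0.00402), while Rbl1 itself was lower there. The call of E2f4 was lost without either control. Rbbp4, a histone-binding DREAM subunit, had -0.46 (limma adjusted p = 0.242) in coding footprints and rose by 2.37 in the 5' UTR (limma adjusted p = 2.18e-05). In that region the median over all genes was 1.09, and limma called 44% of the 2101 genes higher. E2f7, a repressor E2F, had -0.36 (limma adjusted p = 0.426).

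Of the E2F targets of DNA replication, few fell. Of 27 tested, 5 fell, which is 18.5% against 18.7% of all genes, with a median of -0.16, as over all genes. Mcm6, a subunit of the replicative helicase, fell from 591 ± 0.540 normalized coding reads in the controls to 193 ± 20.3 (SD, n = 2, log2 -1.61, limma adjusted p = 0.000781). Chaf1a, a histone chaperone subunit (log2 -1.45), Rfc1, of the clamp loader (-1.36), and Pola1, a polymerase (-1.21), fell as well. Rrm1, a subunit of ribonucleotide reductase, had -0.76 (limma adjusted p = 0.0531) and Pold1, a polymerase subunit, -0.71 (limma adjusted p = 0.0823).

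Cyclins and kinases outside the cell cycle engine gave 1 fall among 6 tested genes, 16.7% against 18.7% of all genes. Cdk19, a kinase of the Mediator complex, had 15.05 and 19.0 normalized coding reads in the controls and 4.07 and 3.19 in the knockdown libraries (log2 -1.96, limma adjusted p = 0.028), a call lost with DESeq2 and without either control. Ccnl2 and Cdk9 had 0.29 and 0.22 (limma adjusted p = 0.592 and 0.625).

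**Figure D4:**
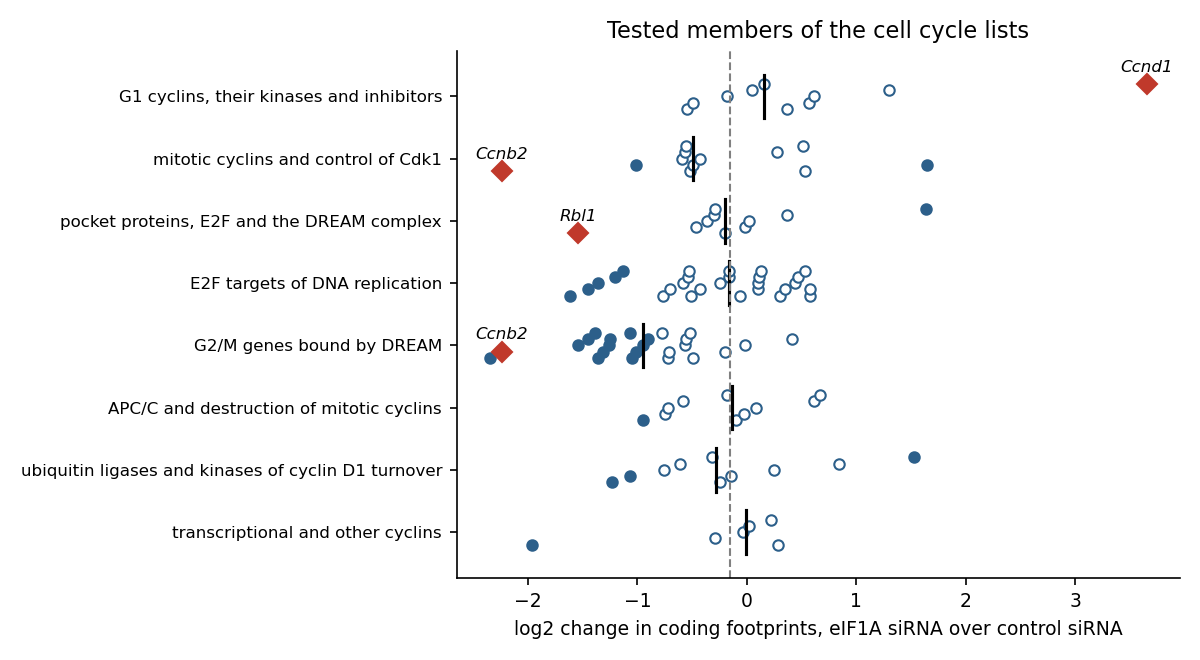
Log2 change in coding footprints, eIF1A siRNA over control siRNA, of the tested members of 8 cell cycle lists, with filled circles for genes past the limma threshold, open circles for the others, red diamonds for Ccnd1, Ccnb2 and Rbl1, a black line at the median of each list without them and a dashed line at the median of all genes. The median of the G2/M genes is -0.95 and that of all genes -0.16, and Ccnd1 lies at 3.66.

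In the 5' UTR, 57 genes of the lists were tested, and 18 rose and 2 fell by limma, with a median of 0.78 against 1.09 over all genes. That is 31.6% higher against 44% of all 2101 genes, 3.51% lower against 2.81%, and 35.1% called in either direction against 46.8%. The split of the calls over all genes moved with the scaling, from 924 higher and 59 lower to 440 and 444 with TMM factors. The 2 genes that fell were Gas2l3 and Nusap1, both spindle or cytoskeleton genes of mitosis, and were chosen for mention after their values were seen. For the ratio, 12 of 54 genes were higher and 0 lower, 22.2% called, against 19.4% higher and 0.0524% lower, 19.5% in all, of 1907 genes. Among those 54 genes, none had a difference as low as that of Ccnd1. The comparison is not a test, since Ccnd1 was chosen by its coding difference and the coding level is the denominator of the ratio.

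The genes whose pattern over the 4 libraries was most like each of the 3 were found by Euclidean distance of log2(coding value + 1), centred for each gene, among 4563 genes. Nearest to Ccnd1 were Nupr1, a stress-induced nuclear protein (distance 0.463), Atf4, the transcription factor of the integrated stress response (0.758), Srm, spermidine synthase (0.802), Trib3, a pseudokinase (1.06) and Pno1, a ribosome assembly factor (1.07). Nupr1 had the same control levels as Ccnd1, 4.30 and 2.59 normalized coding reads, and 55.9 and 27.1 in the knockdown libraries. Atf4 had 7.88 and 4.32 in the controls and 66.1 and 46.3 in the knockdown libraries. All 5 had between 2.59 and 9.31 normalized coding reads in the controls, where 1 read moves the distance.

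Nearest to Ccnb2 were Capn6, a calpain-like protein (0.109), Fads1, a fatty acid desaturase (0.128), Ephb3, an ephrin receptor (0.172), Mmp2, a matrix protease (0.173) and Arhgef10 (0.181), none of them on the cell cycle lists. Fads1 had 325 and 303 normalized coding reads in the controls and 83.4 and 60.7 in the knockdown libraries. Nearest to Rbl1 were Gys1, glycogen synthase of muscle and other tissues (0.0346), Arhgap11a (0.117), Ltbp4, a matrix protein that binds latent TGF-beta (0.119), Ddx17, an RNA helicase (0.127) and Inppl1, an inositol phosphatase (0.129). Gys1 had 86.7 and 111 in the controls and 32.5 and 35.1 in the knockdown libraries. With 4 libraries, a small distance means a like fold and like replicate differences, and many genes share both.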

How the data were processed

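The build was mm10, per the submitters' processing notes, which name DESeq2, HTSeq, TopHat2, Bowtie and cutadapt without versions or roles. The authors deposited 1 signal for the 5' UTR and 1 for the coding sequence of each gene, normalized read numbers per the file headers. All values (100%) were whole multiples of 1 read within 0.01 reads, so whole reads were recovered by division, and edgeR 4.0.16 on them called 1712 genes for coding footprints. Main tests used limma 3.58.1 in R 4.3.3 (trend, all 4 libraries, no covariate) on log2(value + 1) where a gene's mean reached 10 normalized reads, which left 4619 genes in coding, 2101 in 5' UTR and 1907 in ratio values. Folds on this scale understate changes of low genes. DESeq2 1.42.0 on whole reads was an alternative. The limma code was run on simulated coding reads with changes of known size, a fixed spread and no general shift between the groups. These data differ from that setting, so the run checks the code and not the calls made here. With 2 libraries against 2, an exact permutation test cannot give a p below 0.333.

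The 3 genes, the lists and the rule for named genes were chosen with earlier results of these data known. The rule took the 3 genes, their paralogs and partners, up to 4 called and up to 2 other genes with the smallest adjusted p per list, and the 5 genes nearest in pattern. Alternatives were other pseudocounts, filters, scalings and tests, 1 read less per value, the replicate numbers as a block, and leaving out each library. RefSeq (GRCm38.p6) matched 4668 of 4878 symbols directly and all 3 genes. The span of Ccnd1 (chromosome 7, 144929931 to 144939831) overlaps that of LTO1, and the use of strand in counting is not given in the sources.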

Additional observations from a re-analysis of the deposited data

How the results depend on the processing

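The coding differences of Ccnd1, Ccnb2 and Rbl1 kept their signs under every alternative that included them. The genes were chosen by these differences in the same libraries, so the kept signs are a description. Ccnd1 did not reach the filter of a mean of at least 50. The differences of Ccnd1 ranged from 3.11 to 4.20 with a library left out and came to 2.82 with a pseudocount of 5. That of Rbl1 was -1.31 with quantile normalization. In the 5' UTR, Ccnd1 was at 0.85 with TMM factors, 0.89 with quantile normalization and 0.97 with DESeq2. Ccnb2 was at -1.14, -1.06 and -1.26 there and at -1.21 with edgeR, and from -0.42 to 0.22 with a library left out, where it changed sign without control replicate 2 (0.22) and without knockdown replicate 1 (0.07). TMM, edgeR, DESeq2 and quantile normalization set the median of all genes in that region near 0 by construction. The ratio of Ccnb2 was 0.97 with quantile normalization. Ccnd3 went from -0.040 (without knockdown replicate 1) to 0.77 (without knockdown replicate 2). The causes of the other changes were not tested.

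Counts of genes called moved more. A mean of at least 50, which leaves fewer genes, gave 788 in coding, 232 in 5' UTR and 111 in ratio values, against 1352, 983 and 371. DESeq2 called 353 in the 5' UTR. For the ratio, no filter gave 629 and quantile normalization 1. With a library left out the counts ranged from 11 to 1729 for coding, 189 to 1396 for the 5' UTR, 0 to 1175 for the ratio and 0 to 33 for the cell cycle lists. The lowest counts were without control replicate 2 (11 for coding, 0 for the ratio by limma, with 180 at an unadjusted p under 0.05) and, in the 5' UTR, without control replicate 1. There the lone control is assumed to vary like the knockdown pair. Without control replicates 1 and 2, 11 and 16 of the 16 named genes that were called lost their calls.

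Nothing in the labels says that replicate numbers pair the libraries. The differences between replicates 1 and 2 correlated between the groups (r = 0.261 across 4619 genes, which are not replicates). With the replicate block limma called 1921 genes for coding, 1258 for the 5' UTR, 851 for the ratio and 34 on the lists.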
